A study of Mus musculus with 4 samples.

Results

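The 10 genes described here, Lrp5, Lrp6, Dvl2, Axin1, Axin2, Apc, Gsk3b, Ctnnb1, Tcf7l1 and Tcf7l2, encode core components of canonical Wnt and beta-catenin signalling. Their H3K36me3 peaks were chosen as those that the authors' annotation names for 1 of the 10 genes and places in any class but intergenic. The rule gave 157 of the 95750 peaks in the cKO library and 66 of the 36820 peaks in the WT library. The mark measured was H3K36me3, histone H3 trimethylated at lysine 36, by ChIP-seq (chromatin immunoprecipitation with sequencing) of forebrain neural progenitor cells of C57BL/6 mouse embryos at embryonic day 13. The cKO embryos carried a brain-specific deletion of H2A.z1, a histone variant that replaces H2A in some nucleosomes, and the WT embryos were wild type. The driver of the deletion and the number of embryos used are not given in the sources used here. Each genotype had 1 ChIP library and 1 input library, so each difference compares 1 library with 1 library and no test between genotypes was possible. A larger share of marked cells and more mark per cell cannot be told apart in such bulk samples.

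In canonical Wnt signalling a secreted Wnt protein brings together a Frizzled receptor and the co-receptors LRP5 or LRP6 at the cell surface. Without it, a destruction complex of AXIN, APC, GSK3 and casein kinase 1 phosphorylates beta-catenin and marks it for degradation. With it, Dishevelled and the co-receptors draw AXIN to the membrane, and beta-catenin accumulates and binds TCF/LEF factors on DNA. In the embryonic forebrain the pathway is known for patterning the dorsal midline and for regulating the division and differentiation of cortical progenitors. H3K36me3 is laid down by SETD2 behind elongating RNA polymerase II and lies over the bodies of transcribed genes, more toward their ends than at their starts.

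Depth differed little, at 32927164 ChIP tags against 35026817 input tags in cKO and 31984670 ChIP tags against 38500353 input tags in WT. The libraries nevertheless stood apart, since the cKO peaks covered 69.1 Mb in all and the WT peaks 13.3 Mb. H2az1, the gene of the deleted variant, had 21.1% of its body inside peaks in cKO and 7.80% in WT, and these peaks do not check the genotype. Of 8 radial glia markers, 7 had a peak in cKO and 6 in WT, while Fabp7 had none in either. Of 8 neuron markers, 3 had a peak in cKO and 4 in WT. Of 23 markers of microglia, endothelium, erythroid cells and mesenchyme, 4 had a peak in cKO (Csf1r, Alas2, Epb42 and Pdgfra, with 0.414 to 7.02% coverage) and 0 in WT. Their part in the values of the 10 genes was not tested.

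The starts that the reference gives for 6 of the 10 genes were free of peaks in both libraries. The reference promoter table held 8 start windows for 6 of the genes, each from 250 bases before to 50 after a start, and 0 of the 8 windows held a peak in cKO or in WT. Over all 32851 windows of that table, 1.26% held a cKO peak and 0.338% a WT peak, so empty windows were the rule. The sequences before 4 starts are shown as the stretch that stayed free of peaks in the scaffold gene that is also a Wnt target (Axin2), the effector (Ctnnb1), the gene with the nearest peak (Dvl2) and the kinase gene with the string CTTTGA on the minus strand (Gsk3b). Each runs 5′ to 3′ on the plus strand over the 250 bases before the start, from RefSeq, build GRCm38.p6, and capitals mark the motif CTTTGA or its complement TCAAAG.
Axin2 (chr11:108920099-108920348): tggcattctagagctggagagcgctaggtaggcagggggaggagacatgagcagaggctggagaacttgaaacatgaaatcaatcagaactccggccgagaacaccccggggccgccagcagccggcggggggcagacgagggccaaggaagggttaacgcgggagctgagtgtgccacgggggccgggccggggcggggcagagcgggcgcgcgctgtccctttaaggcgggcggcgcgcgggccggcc
Ctnnb1 (chr9:120933150-120933399): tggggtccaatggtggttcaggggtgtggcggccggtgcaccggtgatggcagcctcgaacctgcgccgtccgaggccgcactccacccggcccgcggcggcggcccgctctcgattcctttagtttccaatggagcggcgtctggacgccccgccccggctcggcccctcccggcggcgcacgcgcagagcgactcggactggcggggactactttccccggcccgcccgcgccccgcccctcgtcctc
Dvl2 (chr11:70000342-70000591): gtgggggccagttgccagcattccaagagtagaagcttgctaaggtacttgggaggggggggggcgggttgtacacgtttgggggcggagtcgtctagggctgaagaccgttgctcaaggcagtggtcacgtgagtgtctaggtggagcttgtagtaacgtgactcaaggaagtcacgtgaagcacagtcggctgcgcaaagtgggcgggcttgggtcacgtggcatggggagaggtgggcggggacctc
Gsk3b (chr16:38088751-38089000): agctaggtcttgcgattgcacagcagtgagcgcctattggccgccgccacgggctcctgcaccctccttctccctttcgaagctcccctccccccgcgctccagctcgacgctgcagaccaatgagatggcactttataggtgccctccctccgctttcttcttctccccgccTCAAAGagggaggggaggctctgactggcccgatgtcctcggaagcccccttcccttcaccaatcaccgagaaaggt
The motif, searched on both strands, occurred in the 250 bases before 1 of the 8 starts, that of Gsk3b at position -77 counted from the start, and before 13.8% of all starts in the table. Only this string was searched, so other forms of the TCF binding site were missed and a hit need not be a full site. The GC content of the 4 stretches was 69.2% in Axin2, 74.8% in Ctnnb1, 60.8% in Dvl2 and 62.0% in Gsk3b, against a median of 52.4% over all stretches of the same length. From the Dvl2 start the nearest peak was 474 bp away in cKO and 378 bp in WT, and it lay in the body of the neighbouring gene Phf23. From the Axin2 start it was 3270 bp away in cKO and 11821 bp in WT, and from the Gsk3b start 11026 bp in cKO and 81796 bp in WT. Of the 15 peaks of the 10 genes that the annotation calls promoter-TSS, counting both libraries, 14 lay inside the gene and up to 158405 bp from its start, at the starts of Ensembl transcripts other than the reference start. The other was the WT peak in Phf23.

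Coverage, the share of a gene's RefSeq span (GRCm38.p6) that lay inside peaks, was higher in cKO than in WT for all 10 genes. It was higher by at least 10 percentage points, the size used here to call a gene, in 7 of the 10 (Dvl2, Axin2, Lrp5, Apc, Axin1, Lrp6 and Ctnnb1), and lower by as much in 0. The background was high, since 32.6% of the 16853 protein-coding genes of at least 5 kb, and 61.9% of the 8873 with a peak in either library, were called higher by the same rule and 0% lower. As the rule for the 10 genes required peaks, the share of 61.9% is the nearer comparison, and 7 of 10 lies close to it. The median difference of the 10 genes was 16.1 points (range 2.28 to 33.3), beside 16.4 points over the 8873 genes. Only the 3 genes with at least 10% coverage in WT (Ctnnb1, Dvl2 and Axin2) could have been called lower. Ctnnb1, at 10.2 points, lay just inside the rule and Gsk3b, at 7.76 points, just outside. The number of calls also changed when the longer cKO peak list was cut. With that list reduced to the WT covered length, strongest peaks first, 1 of the 10 (Dvl2) was called higher and 0 lower, and over all genes 810 were called higher and 373 lower, against 5491 and 0 with the full lists.

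**Figure D1:**
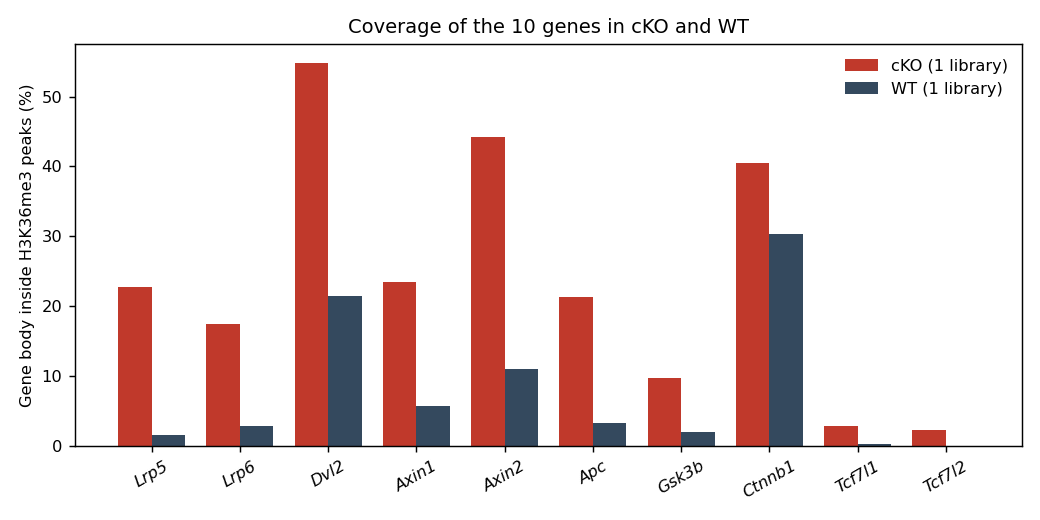
Share of each gene body inside H3K36me3 peaks, in percent, in the cKO library (red, left bar) and the WT library (dark, right bar), 1 library each. Dvl2, Axin2 and Ctnnb1 have the highest bars in both libraries, and Tcf7l1 and Tcf7l2 stay under 3% in both.

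**Figure D2:**
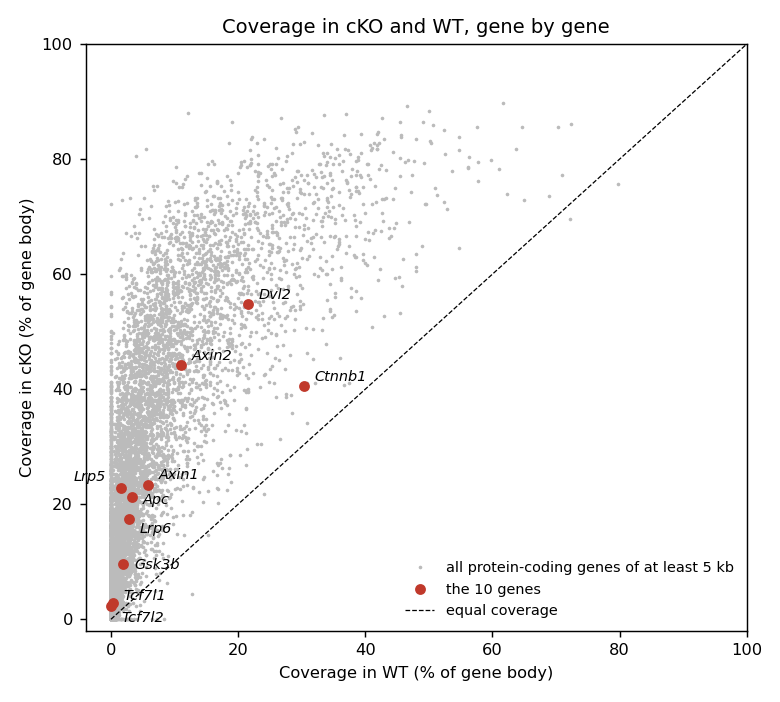
Coverage in cKO (vertical axis, percent of the gene body) against WT (horizontal axis) for the 16853 protein-coding genes of at least 5 kb (grey) and the 10 genes (red), with a dashed line of equal coverage. All 10 genes lie above the line, and Ctnnb1 lies nearest to it relative to its WT coverage, with 40.5% in cKO and 30.3% in WT.

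The co-receptor genes Lrp5 and Lrp6 encode single-pass membrane proteins whose phosphorylated tails bind AXIN. Lrp5 (chromosome 19, 3584825 to 3686585, minus strand) had 22.8% coverage in cKO and 1.58% in WT. Its body held 33 peaks with a median width of 557 bp in cKO, against 9 peaks of 157 bp in WT. Of the 9 WT peaks, 4 were 152 bp wide, which is the fragment length that MACS modelled for that library. Lrp6 (chromosome 6, 134446476 to 134566913, minus strand) had 17.5% coverage in cKO and 2.82% in WT, with 36 and 10 peaks. In both genes the first 20% of the span was empty in both libraries. In Lrp6 the last 20% of the span was covered to 56.0% in cKO and 9.38% in WT, whereas the second 20% had 1.05% in cKO and 0 in WT. In Lrp5 the steps of 20% from the second to the last had 16.1%, 12.6%, 40.0% and 45.3% in cKO, and 1.68%, 0.811%, 3.18% and 2.25% in WT. Both Lrp5 profiles dipped in the third step, and the WT profile peaked in the fourth. The strongest peaks differed in place between the libraries. That of Lrp6 lay in intron 12 of 22 in cKO (134478534 to 134480090, fold enrichment 12.4 over local input) and in intron 7 of 10 of a shorter transcript in WT (134456954 to 134457300, fold enrichment 7.78). Fold values describe peaks within 1 library and were not compared between them. At the WT covered length the difference of Lrp5 turned to -0.439 points and that of Lrp6 was 0.537.

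Dvl2 encodes a Dishevelled protein, the cytoplasmic adaptor between Frizzled and AXIN. It is the shortest of the 10 genes (9518 bp; chromosome 11, 70000592 to 70010109, plus strand) and had the highest coverage in cKO, 54.8%, against 21.5% in WT. The cKO body held 2 peaks and the WT body 4. One cKO peak of 7818 bp (70005901 to 70013718), the widest of all peaks over the 10 genes, overlapped 6 WT peaks and ran on past the gene into Acadvl, a fatty acid oxidation gene. The last 20% of Dvl2 was covered to 100% in cKO and 0 in WT, while the first 40% was empty in both. The annotation names the 7818 bp peak for Acadvl. When peaks were taken by annotated name, Dvl2 therefore had 10.6% coverage in cKO and 21.5% in WT, a difference of -10.9 points, so its direction depended on how peaks were assigned. With peaks within 3 kb joined, the difference was 5.10 points (56.5% in cKO and 51.4% in WT).

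The destruction complex genes are Axin1 and Axin2, which encode the scaffolds, Apc, which encodes a large scaffold and tumour suppressor, and Gsk3b, which encodes the kinase. Axin1 (chromosome 17, 26131217 to 26195811, plus strand) had 23.4% coverage in cKO and 5.75% in WT. Axin2 (chromosome 11, 108917828 to 108950783, plus strand), itself a widely used target gene of the pathway, had 44.2% in cKO and 11.0% in WT. The paralogues shared a strongly marked last 20% of the span, covered to 74.1% in cKO and 23.3% in WT in Axin1 and to 77.2% in cKO and 31.6% in WT in Axin2. They differed at the front. Axin1 was the only 1 of the 10 genes with a peak at its span's first base in cKO, and its first 20% was covered to 17.0% in cKO and 5.47% in WT, whereas that of Axin2 had 7.72% in cKO and 0 in WT. The authors' annotation classed the peaks nearest the Axin1 start, 3 in cKO and 2 in WT, as intergenic. It named the first of them in each library for Mrpl28, and that cKO peak of 1122 bp began before the span. In the last 20% of Axin1, 2 cKO peaks and 1 WT peak were named for the neighbour Pdia2. By annotated name Axin1 had 16.5% coverage in cKO and 4.58% in WT. One cKO peak in Axin2 (108943646 to 108947731, intron 9 of 10) took in 5 WT peaks, among them the strongest WT peak of the gene. At the WT covered length Axin2 still differed by 7.87 points, while Axin1 turned to -4.64.

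Apc (chromosome 18, 34220297 to 34322190, plus strand) had 21.3% coverage in cKO and 3.30% in WT, from 37 and 11 peaks. The first 40% of the span was empty in both libraries, and the first peak lay 51794 bp from the start in cKO and 53283 bp in WT. From there coverage was 21.6%, 42.4% and 42.7% in the following steps of 20% in cKO, and 2.47%, 4.91% and 9.10% in WT. All 11 WT peaks of Apc were overlapped by a cKO peak. Gsk3b (chromosome 16, 38089001 to 38246084, plus strand) had 9.67% coverage in cKO and 1.91% in WT and missed the rule. Its cKO peaks were many and narrow, 39 with a median width of 320 bp, against 12 of 243 bp in WT. Of these, 11 WT peaks were overlapped by a cKO peak. In the first 20% of Gsk3b, 3.71% was covered in cKO and 0 in WT, and the second 20% was empty in both.

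Ctnnb1 encodes beta-catenin, the transcriptional effector of the pathway and a component of cadherin junctions. Its WT coverage was the highest of the 10 genes. The gene (chromosome 9, 120933400 to 120960507, plus strand) had 40.5% of its 27108 bp covered in cKO and 30.3% in WT. Its WT value was above that of 96.8% of the 8873 genes with a peak in either library, its cKO value above 74.3% and its difference above 38.5%. The marked part was sharply bounded. In the last 40% of the span, coverage was 93.2% and 91.9% per step of 20% in cKO and 79.9% and 71.6% in WT. The first 60% was empty in WT and held 3 peaks of 291 to 334 bp in cKO, all annotated to introns. The last 40% was fragmented differently. In cKO 1 peak of 6382 bp (120950033 to 120956414, fold enrichment 9.94) overlapped 4 WT peaks, among them the strongest (120950714 to 120951717, fold enrichment 9.72). By annotated name Ctnnb1 had 9 peaks in cKO and 15 in WT, and with Dvl2 (2 in cKO and 5 in WT) it was 1 of 2 members with fewer cKO peaks, while 8 had more. Of all 8691 protein-coding names with a peak outside the intergenic class, 12.6% had fewer and 81.1% more peaks in cKO. The 9 cKO peaks of Ctnnb1 summed to 19137 bp and the 15 WT peaks to 11407 bp, whereas the 2 cKO peaks named for Dvl2 summed to 3055 bp and the 5 WT peaks to 3189 bp. The call itself was narrow. With peaks of at least 4-fold enrichment the difference was 8.95 points, under the rule, and at the WT covered length it was 6.71 points.

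H3K36me3 peaks named for Ctnnb1 continued past its end. Within 10 kb of the end 8162 bp were covered in cKO and 3191 bp in WT. There the reference places Ulk4, a kinase-like gene, and 3 of the 9 cKO peaks and 4 of the 15 WT peaks named for Ctnnb1 overlapped its body. ChIP reads carry no strand of transcription, so the mark there cannot be assigned to 1 of the 2 genes.

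Tcf7l1 and Tcf7l2 encode TCF factors, which bind DNA and recruit beta-catenin. They had the lowest coverage of the 10 genes. Tcf7l1 (chromosome 6, 72626371 to 72789045, minus strand), known mainly as a repressor in the absence of Wnt, had 2.78% coverage in cKO and 0.261% in WT, from 12 and 2 peaks. Its peaks sat at the ends. The middle 60% of the span was empty in both libraries, the first 20% had 4.82% in cKO and 0.830% in WT, and the last 20% had 9.10% in cKO and 0.476% in WT. The annotation named the 3 cKO peaks nearest the gene end, among them the strongest of the gene, for Gm15401. By annotated name Tcf7l1 had 1.61% coverage in cKO and 0.261% in WT. Both WT peaks of Tcf7l1, 1 at each end, were overlapped by a cKO peak. Tcf7l2 (chromosome 19, 55741797 to 55933659, plus strand) had 2.28% in cKO, from 9 peaks, and no WT peak. Its first cKO peak lay 78999 bp from the start, and 9.28% of the last 20% of the span was covered. By position Tcf7l2 was thus the 1 gene of the 10 with peaks in cKO alone. By annotated name Gsk3b was another, with 2 peaks in cKO and 0 in WT. Peaks in cKO alone were common. Of the 8873 genes of at least 5 kb with a peak in either library, 8775 had one in cKO and 6400 in WT. The strongest cKO peak of Tcf7l2 (55820796 to 55821124, intron 4 of 12, fold enrichment 4.82) stood above 58.8% of the cKO list by q-value. None of the 9 was among the strongest 36820 cKO peaks, the number of peaks in WT.

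**Figure D3:**
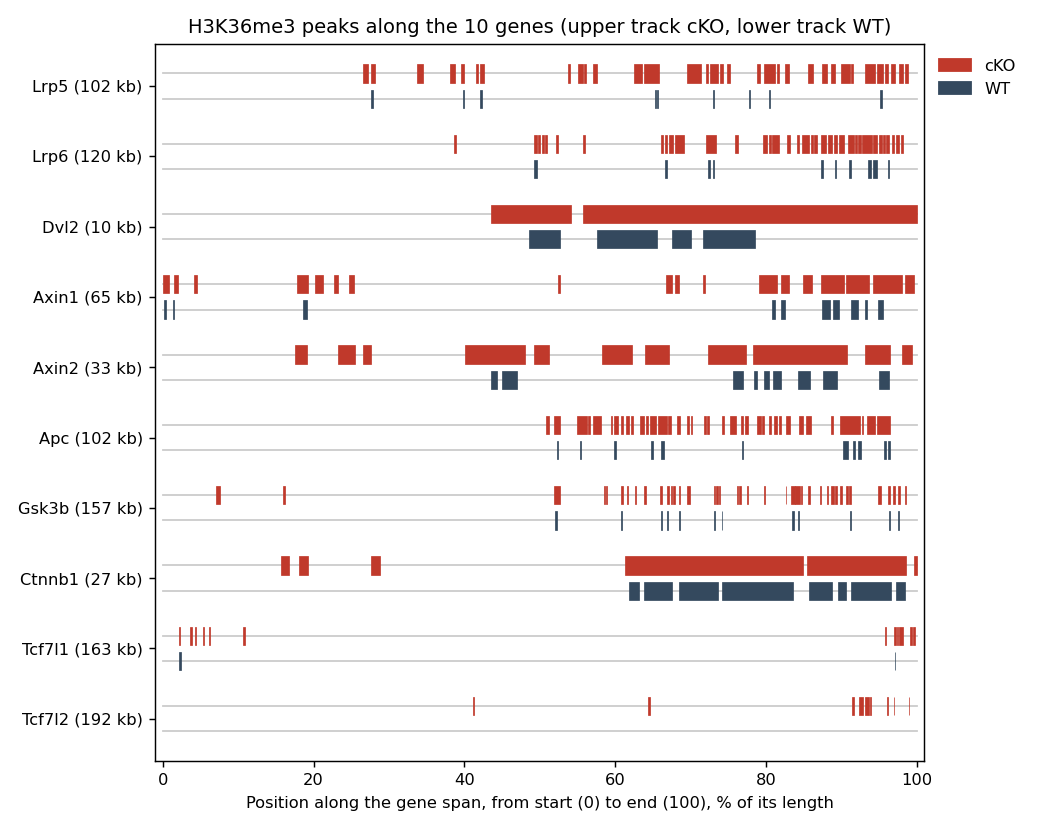
Peaks along the span of each gene, drawn to percent of its length from start (left) to end (right), with the cKO track above the WT track. Peaks gather toward the end in most genes, the WT peaks lie almost all under cKO peaks, and Ctnnb1 and Dvl2 show a few wide cKO blocks where WT has several smaller ones.

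Across the 10 genes, 73 of the 75 WT peaks over a gene body were overlapped by a cKO peak (97.3%, beside 96.0% of all 36820 WT peaks). The exceptions were 1 peak in Lrp5 and 1 in Gsk3b. Conversely, a WT peak overlapped 53 of the 203 cKO peaks over a body. The share over all 95750 cKO peaks was not computed, so this count is not read as a trait of the 10 genes. The median width of the peaks over a body was 444 bp in cKO and 285 bp in WT, close to those of all peaks at 436 bp in cKO and 271 bp in WT. MACS modelled fragments of 185 bp in cKO and 152 bp in WT, and the narrowest peaks over a body had these same widths. The part of this in the width difference was not tested. Over the bodies 9 cKO peaks and 1 WT peak, in Ctnnb1, exceeded 2 kb. The shares of all peaks over 2 kb were not computed, so these counts are likewise not read as a trait of the 10 genes. The covered bases lay mostly in the downstream 50% of the span. This held for 9 of the 9 genes with peaks in both libraries in cKO and for 8 of 9 in WT, with Tcf7l1 as the exception at 36.5%. The median share of covered bases there was 88.2% in cKO and 90.4% in WT, beside 72.9% in cKO and 87.3% in WT over the 5141 genes of at least 5 kb with a known strand and peaks in both libraries. Of those genes 88.2% in cKO and 80.6% in WT had most of their covered bases in the downstream 50%. The 9 genes went the same way but for Tcf7l1 in WT, with higher medians, more so in cKO. Strand for the 5141 genes came from the promoter table alone, which lacks Lrp5, Lrp6, Axin1 and Apc.

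Which peaks belong to a gene depended on the annotation, and most of all for Gsk3b. Of the 203 cKO peaks over the 10 bodies, 54 carried another gene's name, and 17 of the 75 WT peaks did. In Gsk3b these were 37 of 39 cKO peaks and all 12 WT peaks, of which 34 and 11 were named for SNORA61 and the others for Gm25617, although the annotation classed each of them to an intron, exon or TTS. By annotated name Gsk3b thus had 2 peaks in cKO and 0 in WT, and its coverage was 0.742% in cKO and 0 in WT. In Lrp5, 8 cKO peaks and 1 WT peak carried the name of the neighbour Ppp6r3. By contrast, 4 of the 13 cKO peaks named for Tcf7l1 lay outside its body, 3 of them in Kcmf1, a ubiquitin ligase gene. Values by position are therefore used here for coverage and values by name for the counts that the selection rule fixed.

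**Figure D4:**
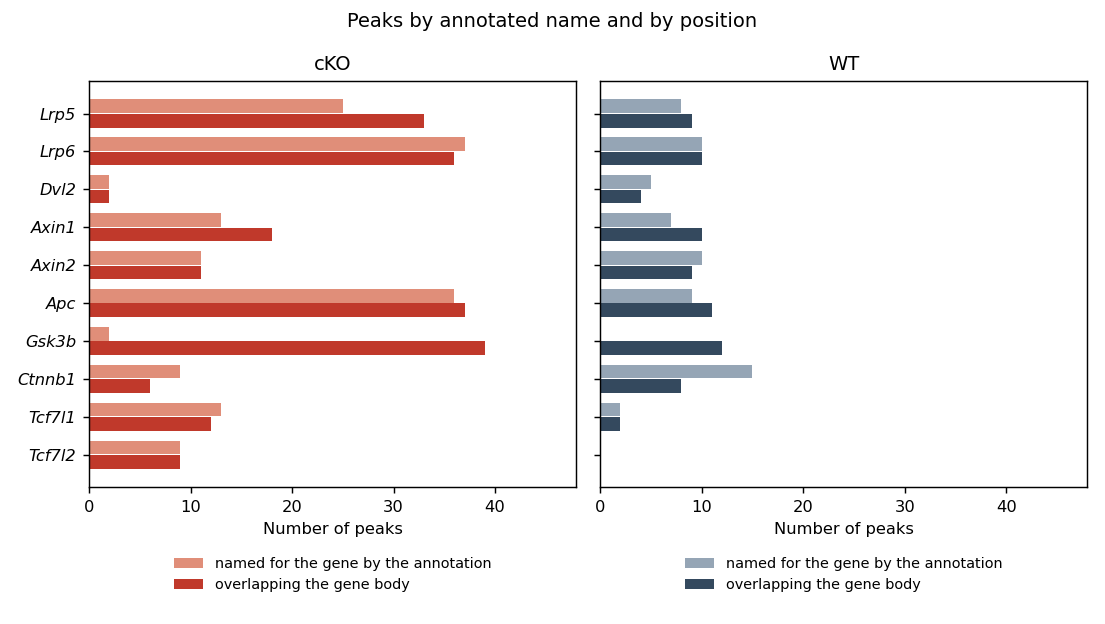
Number of peaks per gene that the annotation names for it (pale bars) and that overlap its body (dark bars), in cKO (left panel) and WT (right panel). Gsk3b has 2 cKO peaks by name and 39 by position, and 0 and 12 in WT, while Ctnnb1 has more by name than by position in both libraries.

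The other genes of the pathway were described from a list of 93 genes grouped by role. Of these, 49 had a peak in cKO and 32 in WT. Of the 78 of at least 5 kb, 24 (30.8%) were called higher in cKO, near the background of 32.6%, and 0 lower. Over all genes of at least 5 kb, 52.1% had a peak in cKO and 38.0% in WT. The 93 genes had a median difference of 0.818 points, beside 0.361 points over the 16853 genes of at least 5 kb. Medians by role likewise cover all genes of a role, and counts of called genes those of at least 5 kb.

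Cytoplasmic and nuclear components were widely marked. Of 19 cytoplasmic transducers, 17 had a peak in cKO and 13 in WT, and the median coverage was 16.8% in cKO and 3.29% in WT. The 17 with a cKO peak were also those of at least 5 kb, and 11 of 17 (64.7%) were called higher. That share was near the 61.9% over the 8873 genes of at least 5 kb with a peak in either library. Csnk1d, a casein kinase 1, had 74.6% in cKO and 25.4% in WT. Gsk3a, the paralogue of Gsk3b, had 70.6% in cKO and 23.0% in WT. Its coverage stood above that of Gsk3b in both libraries, in a gene of 9594 bp beside one of 157084 bp. By annotated name Gsk3a had 29.1% in cKO and 2.41% in WT, and Gsk3b 0.742% in cKO and 0 in WT. Tnks2, a tankyrase that marks AXIN for degradation, had 47.6% in cKO and 8.32% in WT. Of 14 nuclear partners, 13 had a peak in cKO and 10 in WT. Beside 32.6% of all genes of at least 5 kb and 61.9% of those with a peak, 7 of these 14 (50.0%) were called higher. Among them were the acetyltransferase gene Ep300 (55.7% in cKO and 14.5% in WT), Pygo2, a beta-catenin co-activator (42.9% in cKO and 4.05% in WT), and Cby1, a beta-catenin antagonist (30.2% in cKO and 1.78% in WT). By annotated name neither Ep300 nor Cby1 was called, with no coverage of Ep300 in either library and 6.08% of Cby1 in cKO and 0 in WT.

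Ligand, modulator and receptor genes were mostly without peaks, though the receptor genes in cKO lay near the background. Over all genes of at least 5 kb, 52.1% had a peak in cKO and 38.0% in WT, and 32.6% were called higher. The counts with a peak given here also include shorter genes. Of 19 Wnt ligand genes, 5 had a peak in cKO and 3 in WT, and 2 of 18 were called higher. These were Wnt2b (13.6% in cKO and 0.899% in WT) and Wnt7a (19.4% in cKO and 7.13% in WT), while Wnt7b had 3.85% in cKO and no WT peak, and by annotated name no coverage in either library. Of 16 secreted modulators, 3 had a peak in cKO and 1 in WT, and 2 of 12 were called higher. The Wnt-binding antagonist genes Sfrp2 (27.0% in cKO and none in WT) and Sfrp1 (14.0% in cKO and 3.03% in WT) were called, and Dkk4 had 5.01% in cKO and none in WT. Porcn and Wls, needed for ligand secretion, had no peak in either library. Of 20 genes for receptors and their turnover, 9 had a peak in cKO and 4 in WT, and 1 of 13 was called higher, Ryk (14.1% in cKO and 1.66% in WT). Fzd3 (10.3% in cKO and 2.46% in WT) and Fzd2 (7.33% in cKO and none in WT) were not called. The Frizzled gene Fzd8 alone of the 93 had lower coverage in cKO, 18.5% against 24.4% in WT, in a gene of 3346 bp that is too short for the rule. Of 3 target genes, Ccnd1 (cyclin D1) had 61.1% in cKO and 4.72% in WT, Myc had 7.85% in cKO and none in WT, and Sp5 had no peak in either.

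**Figure D5:**
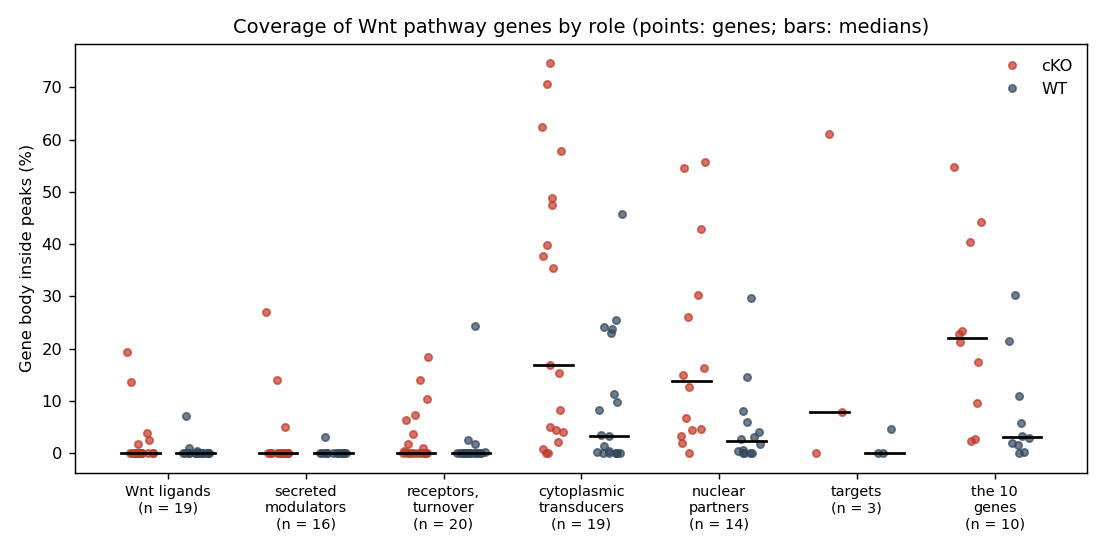
Coverage of each gene of the pathway list by role and of the 10 genes, in percent of the gene body, with cKO in red on the left and WT dark on the right of each role and black bars for the medians (the 2 ligand secretion genes, both at 0, are not drawn). Cytoplasmic transducers, nuclear partners and the 10 genes have medians of 16.8%, 13.8% and 22.1% in cKO and of 3.29%, 2.29% and 3.06% in WT, and those of ligands, modulators and receptors are 0 in both.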

How the data were processed

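ChIP-seq of H3K36me3 in embryonic day 13 forebrain was deposited as 1 peak list and 1 annotation table per genotype. The reads had been mapped to mm10 by Bowtie2 2.2.9, per the submitters' processing notes. Peaks were called per ChIP library against an input with MACS 2.1.1.20160309 as narrow peaks at a p cutoff of 1.00e-05, per the file headers (the processing notes give MACS2 2.1.0). Whether the cKO input, whose file name carries 2 numbers, was a pool is not stated in the sources used here. The deposited lists give the pileup signal at the summit, the fold enrichment over local input, and p-value and q-value as -log10, each computed by the authors' MACS run. Although the headers call q not calculated, that column is filled with positive values. It was used here to rank or filter peaks inside 1 list and for nothing else.

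Every annotated peak was joined to its list by chromosome, start minus 1 and end. Coverage was the share of a RefSeq span (GRCm38.p6, the chromosomes of mm10, 21887 protein-coding genes, not screened for misplaced spans) inside merged peaks. Strand came from the promoter table, or for Lrp5, Lrp6, Axin1 and Apc from the order of annotated intron and exon numbers. For Ctnnb1 these sources disagreed, plus in the promoter table and minus by the numbers, and the promoter table was used. Narrow calling can break a broad mark into pieces, and how coverage follows signal was not tested. Both lists were used as deposited. The coverage code was tested on simulated data. Python 3.11.15, pandas 2.3.3 and numpy 2.4.6 were used. The 10 genes and all lists were chosen with earlier results of these data known, and the pathway genes named were the 3 with the largest absolute difference per role and any with lower coverage in cKO. Alternatives were a minimum -log10 q of 5, a minimum fold of 4, the cKO list cut by q to as many peaks or as much covered length as WT, joining within 3 kb, assignment by annotated name and a rule of 20 points.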

Additional observations from a re-analysis of the deposited data

How the results depend on the processing

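No paired analysis was possible because each genotype had 1 ChIP library, and no library could be left out. The median difference of the 10 genes stayed positive under every alternative run, but was only 0.269 points at the WT covered length. Otherwise it ran from 8.30 points (cKO list cut to the WT number of peaks) to 19.9 (peaks within 3 kb joined). A minimum -log10 q of 5, a minimum fold of 4, joining, and assignment by name gave 7, 6, 7 and 6 genes called higher, beside 7. Over all genes of at least 5 kb these settings called 32.3%, 30.2%, 35.8% and 24.1% higher, in that order. By name 1 of the 10 genes, Dvl2, was called lower, beside 19 of the 16853 genes of at least 5 kb. Under the other settings 0 of the 10 were called lower. Shares over genes with a peak were not computed for the alternatives. With the WT number of peaks 3 were called higher, at the WT covered length 1 and by a rule of 20 points 3. Of all genes of at least 5 kb, 22.1%, 4.81% and 22.8% were called higher under these settings in that order, beside 32.6%. Annotated cKO peaks of the 10 genes then numbered 61 (WT number of peaks) and 12 (WT covered length) in place of 157. In the pathway list 5 genes were called at the WT covered length and 14 by the rule of 20 points, in place of 24 of 78, beside the same background of 4.81% and 22.8%. Directions turned at the WT covered length in Axin1 (-4.64 points), Lrp5 (-0.439), Wnt7a (-7.13), Ccnd1 (-4.72), Sfrp1 (-3.03), Tnks2 (-2.12), Cby1 (-1.78), Ryk (-1.66) and Wnt2b (-0.899), and by annotated name in Dvl2 (-10.9). Among genes not called, Gsk3b (-1.91), Fzd3 (-0.944) and Tcf7l1 (-0.261) also turned at the WT covered length. That setting keeps 5307 of the 95750 cKO peaks, so many genes lose all of theirs. The cause of the other changes was not tested. At this depth an empty stretch is one without a called peak, not one without the mark.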
